A study of Danio rerio with 6 samples.

Results

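Cytoplasmic ribosomal protein genes were taken by symbol: every gene whose zebrafish symbol begins, ignoring case, with RPL or RPS and a number, or is RPLP0, RPLP1, RPLP2 or RPSA, with the 10 genes of the S6 kinase family (rps6k) left out. The rule found 74 of 32469 genes, 41 of the large and 33 of the small ribosomal subunit, and 73 of them had enough counts for the test. The exception was rps11l, with 7 counts over all libraries. The symbol rps19bp1 also met the rule, but it names a binding partner of RPS19 and not a ribosomal protein. Some symbols are human-style capitals that stand for several zebrafish genes, so the gene identifier is given where a symbol occurs more than once.

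Ribosomal proteins assemble with ribosomal RNA into the small subunit, which decodes the messenger RNA, and the large subunit, which joins amino acids and carries a stalk that recruits elongation factors. Their messenger RNAs in vertebrates share a terminal oligopyrimidine (TOP) start, through which mTOR signalling controls their translation, and the proteins are made in matched amounts. Free RPL5 and RPL11 bind the ubiquitin ligase MDM2 when ribosome assembly fails.

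RNA was sequenced from cells of OMP-Gal4;UAS-GCaMP1.6 zebrafish, in which the OMP promoter, active in mature olfactory neurons, drives a green fluorescent calcium sensor. Embryos received 100 µM gallein, which blocks G protein beta-gamma signalling, or the solvent DMSO (control) in a treatment that began at 16 to 20 hours post fertilization, with the medium and agent renewed every 24 hours. Heads were taken at 5 days post fertilization, and cells with green fluorescence were sorted. Each group held 3 samples that the labels call biological replicates, and how many larvae each sample pooled is not given in the sources used here.

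Gene counts per library ranged from 30822664 to 40295728. Spike-in RNA held between 2.24% and 9.21% of the counts of genes and spike-ins together. Gallein replicate 2 stood apart from the others: genes of the mitochondrial genome took 8.86% of its gene counts against 31.7% to 40.5% elsewhere, and alignments that were not unique took 22.3% of its total against 9.55% to 16.1%. The 12 tested genes of mature ciliated olfactory neurons summed to between 80.3 and 110 CPM (counts per 1000000, scaled by edgeR's TMM factors) in the controls and between 44.7 and 60.2 CPM with gallein. In gallein replicate 2 the sum was 45.2 CPM, of which RIC8B held 24.4 and ADCY3 ENSDARG00000077145 held 13.6 CPM. The gene cnga4 was at 0.0963 CPM there, against 6.66 and 7.73 CPM in gallein replicates 1 and 3. OMP itself was at 13.4, 6.97 and 7.81 CPM in the controls, in order of replicates 1 to 3, against 4.79, 0.193 and 4.99 CPM with gallein. All values below keep that order of libraries.

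With TMM factors, ribosomal protein transcripts varied more between libraries of a group than between the groups. Their summed level was 34798, 14184 and 15401 CPM in control libraries against 42455, 111547 and 13012 CPM with gallein. Gallein replicate 2 was the highest library and gallein replicate 3 the lowest, 8.57-fold apart, and the controls spanned 2.45-fold, with replicate 1 highest. The group means were 21461 ± 11566 and 55671 ± 50580 CPM (SD, n = 3). The mean log2 level was 1.01 higher in gallein, less than the within-group SD of 1.21 on the same scale, and the groups overlapped. In these sorted bulk samples, fewer cells of a type and less RNA per cell cannot be told apart.

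The direction of that difference depended on what the counts were set against. Ribosomal protein genes held 3.63%, 2.06% and 1.92% of all gene counts in control libraries against 2.93%, 7.13% and 1.56% with gallein, a log2 difference of 0.39. Outside the mitochondrial genome the shares were 5.32%, 3.44% and 3.16% against 4.92%, 7.82% and 2.47%, a log2 difference of 0.24. Per spike-in count, which relates the transcripts to RNA added from outside, the values were 0.765, 0.896 and 0.443 in the controls and 0.331, 0.702 and 0.258 in gallein, a log2 difference of -0.78. On this last scale the mean was lower in gallein by more than the within-group SD of 0.65, and the groups still overlapped. The within-group SDs on the other scales of this paragraph were 0.86 and 0.66. Comparing groups on the spike-in scale assumes that spike-in RNA was added in equal proportion to the sorted cells, which was not tested. The spike-in share was 4.53%, 2.24% and 4.15% in the controls and 8.14%, 9.21% and 5.69% with gallein. Every gallein library was above every control in this share, and the cause was not tested. The fall relative to spike-in RNA was not particular to these genes. Under spike-in totals the median log2 fold change was -1.67 over all genes tested, beside -0.76 over the members.

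**Figure D1:**
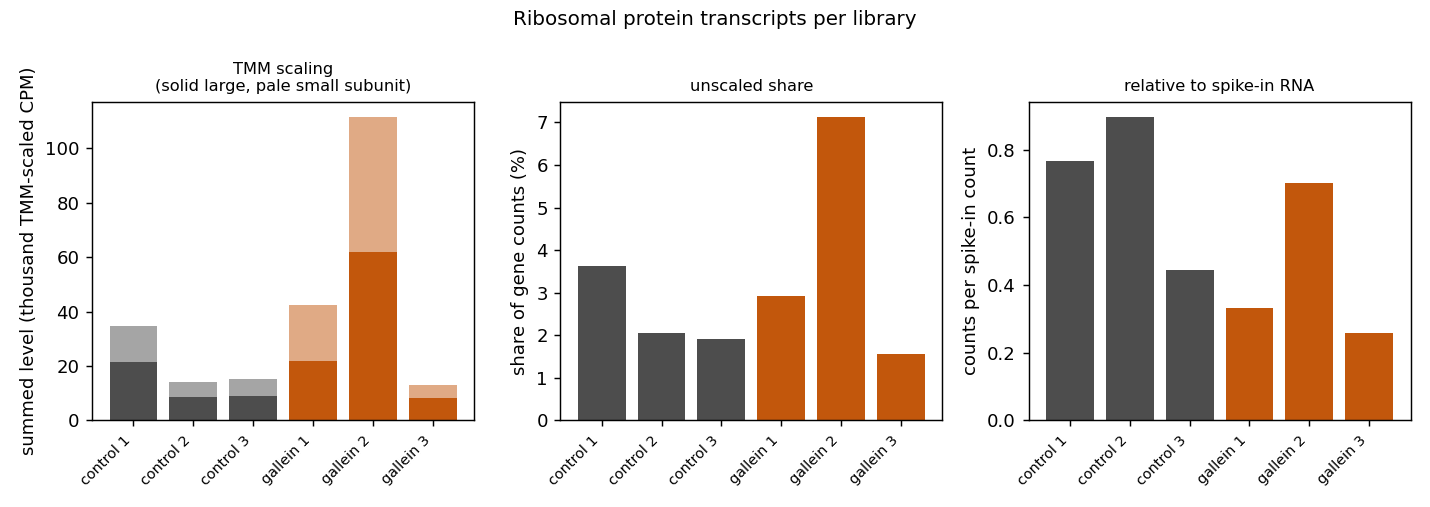
Summed ribosomal protein transcripts in each of the 6 libraries (controls grey, gallein orange), as TMM-scaled CPM, as percent of gene counts, and as counts per spike-in count. Gallein replicate 2 is highest on the first pair of scales, control replicate 2 is highest relative to spike-in RNA, and the groups overlap on all 3.

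Both subunits showed the same order of libraries at their extremes. Large subunit transcripts summed to 21347, 8668 and 9149 CPM in control libraries against 21927, 61822 and 8058 CPM with gallein. Small subunit transcripts summed to 13451, 5516 and 6252 CPM in control libraries against 20528, 49725 and 4954 CPM with gallein. The log2 differences of the means of log2 levels were 0.90 and 1.15 with TMM factors, against within-group SDs of 1.16 and 1.28, and the direction turned under spike-in totals, to -0.89 and -0.64 against within-group SDs of 0.64 and 0.69. The ratio of large to small subunit counts was 1.59, 1.57 and 1.46 in control libraries against 1.07, 1.24 and 1.63 in gallein. Gallein replicates 1 and 2 had ratios below every control, gallein replicate 3 had the highest of all, and a ratio of summed counts is weighted towards the most abundant genes.

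Gene by gene, the same library was mostly at the top. Gallein replicate 2 was the highest of the 6 libraries for 60 of the 73 tested genes, against 22.3% of all genes tested, and gallein replicate 3 was the lowest for 38, against 16.4%. Within gallein, replicate 2 was highest for 65 and replicate 3 lowest for 70 of the 73, against 32.7% and 30.5% of all genes tested. Within the controls, replicate 1 was highest for 63, against 34.9% of all genes tested. The lowest control was replicate 2 for 37 and replicate 3 for 34 of the 73, against 28.9% and 34.3% of all genes tested. Most of the genes thus shared the highest library of each group and the lowest gallein library, but not the lowest control.

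**Figure D2:**
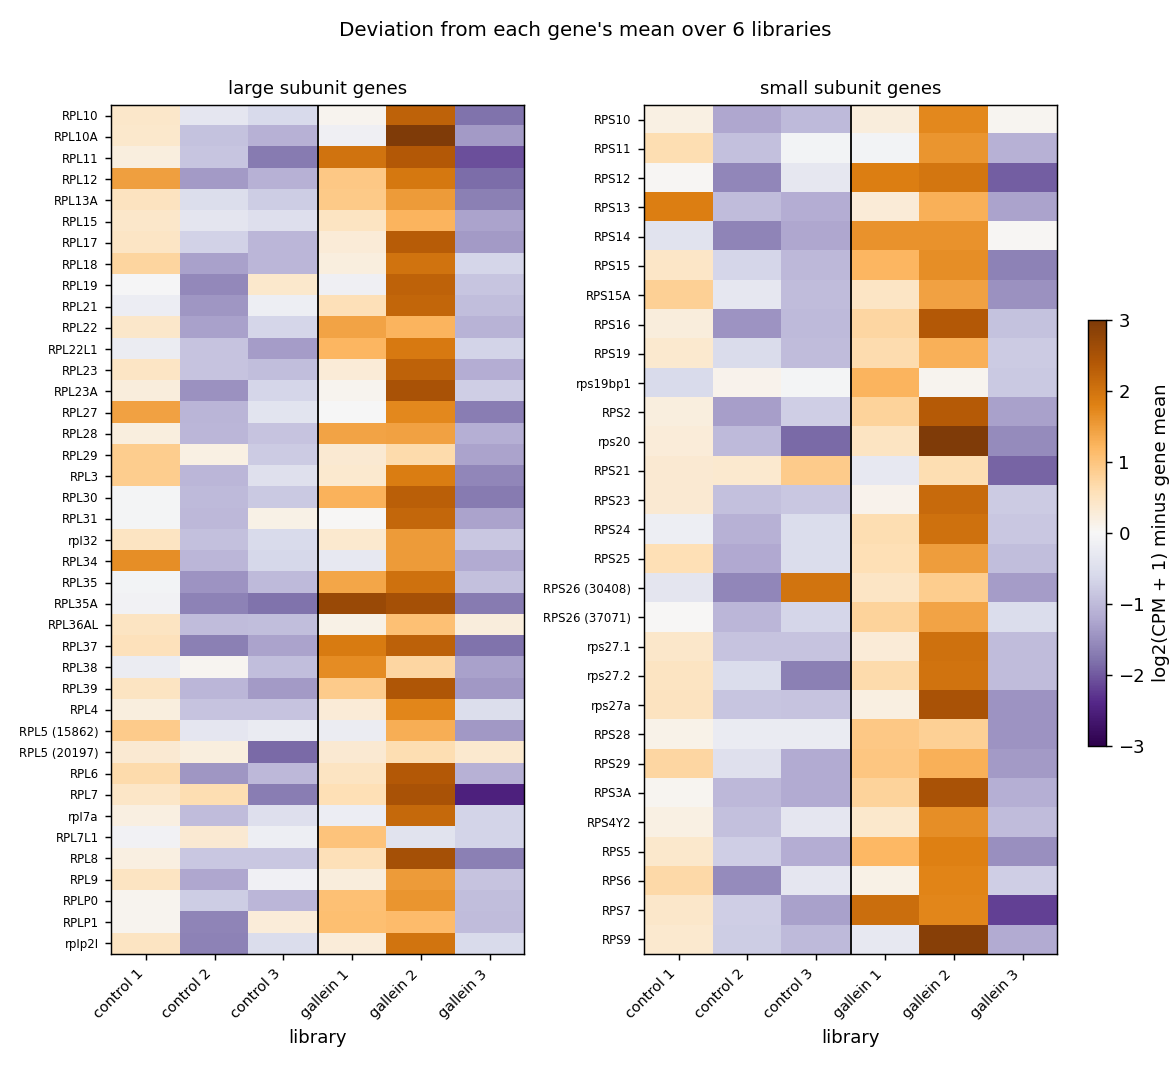
Each row is a tested ribosomal protein gene (4 of the 73 are not drawn) and each column a library; colour gives log2(CPM + 1) minus the gene's mean over the 6 libraries, from -3 (purple) to 3 (orange). Gallein replicate 2 is orange in most rows, gallein replicate 3 and control replicates 2 and 3 are mostly purple, and 1 gene each of the RPL5 and RPS26 pairs, and RPS21, break the pattern.

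As a description of how closely the genes moved together, each member's log2(CPM + 1) was correlated over the 6 libraries with a reference. The reference was the log2 of the summed CPM of the other members, which is weighted towards the most abundant genes. The coefficient was above 0.9 for 51 of 73 members (69.9%), with a median of 0.93. Of the 18198 other genes tested, 535 (2.94%) exceeded 0.9 against the log2 of the summed CPM of all members. The median over these 18198 genes was -0.09. The points share their libraries, and gallein replicate 2 sets much of the range. The coefficient was below 0.5 for 6 members, among them RPL5 ENSDARG00000020197, RPS26 ENSDARG00000030408, RPS21, rps19bp1 and RPL7L1.

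No ribosomal protein gene passed the test of gallein against control. With edgeR's quasi-likelihood test and a Benjamini-Hochberg adjusted p of 0.05, 0 of 73 were higher and 0 were lower, and the background was 0% of 18271 genes in either direction. The smallest adjusted p of a member was 0.756. At an unadjusted p of 0.05, 3 members were higher (RPL35A, RPL22L1 and RPS14), which is 3 of 73 beside 4.03% of all genes tested, and 0 were lower beside 2.47%. The DESeq2 Wald test called 0 higher and 0 lower, where it called 0.313% and 0.226% of its genes, and it had 13 members higher and 0 lower at an unadjusted p of 0.05, beside 5.38% and 3.56% of its genes. With limma-voom 0 were called in either direction, also 0% of all genes, and at that unadjusted p 1 was higher and 0 lower, beside 1.23% and 1.64% of all genes.

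The log2 fold changes themselves were positive for 67 members and negative for 6 with TMM factors, whereas under spike-in totals 5 were positive, beside 8.59% of all genes tested. Their median was 1.26 with TMM factors, beside 0.07 over all genes tested, of which 52.7% were positive. The median was 1.23 in the large subunit, where 39 of 41 were positive, and 1.26 in the small subunit, where 28 of 32 were. Values ran from -0.76 (RPS21) to 3.05 (RPL35A). Without gallein replicate 2 the median was 0.31 and 48 members were positive, with a median of -0.04 over all genes. Under spike-in totals the members' median was -0.76, while the median of all genes was -1.67. All 3 gallein libraries lay above all 3 controls for 2 members, RPS14 and RPL5 ENSDARG00000020197, beside 3.81% of all genes tested, and below them for 0, beside 5.22%.

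Such counts moved with single libraries and with the scaling. Without gallein replicate 3, which was the lowest library for 38 members, 37 members had gallein above the controls, beside 10.9% of all genes, and 1 below, beside 15.4%. Without control replicate 1 there were 12 above and 0 below, beside 8.14% and 10.7%. Without gallein replicate 2 there were 2 above and 1 below, beside 8.51% and 10.1%. Under spike-in totals 0 members were above and 17 below, beside 0.104% and 29.9% of all genes.

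**Figure D3:**
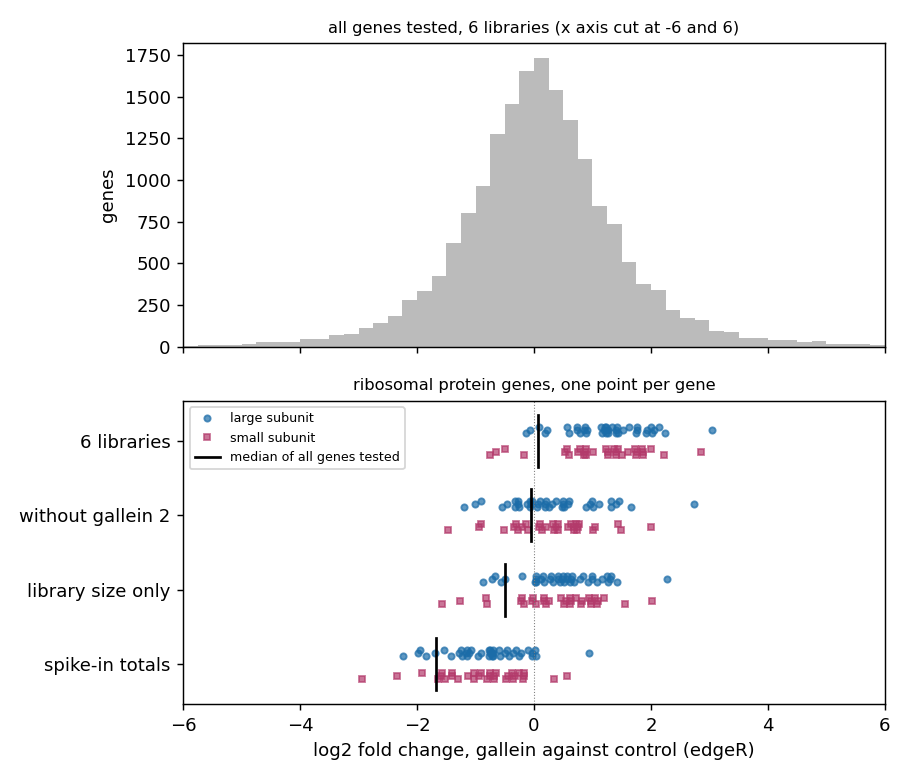
Upper panel, number of genes by log2 fold change of gallein against control among all genes tested. Lower panel, each ribosomal protein gene (blue, large subunit; red, small subunit) with all 6 libraries, without gallein replicate 2, with library size as the only scaling and with spike-in totals, with the median of all genes as a black bar. The members' median is 1.26, 0.31, 0.51 and -0.76 in these fits and that of all genes 0.07, -0.04, -0.49 and -1.67. The sign of the members' median turns under spike-in totals, where the median of all genes falls as well.

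RPS14, a small subunit protein of the platform near the messenger RNA exit, stood at 573, 247 and 325 CPM in control libraries against 2297, 2305 and 777 CPM with gallein. Every gallein library was above every control, gallein replicate 3 included, although that library was the lowest of the 6 for 38 members. The log2 fold change was 2.23 ± 0.97 (SE; adjusted p = 0.758 by edgeR). Without gallein replicate 2 it was 2.01. As a share of all ribosomal protein counts, which needs no scaling factor, RPS14 was at 1.65%, 1.74% and 2.11% in the controls and 5.41%, 2.07% and 5.97% in gallein, so gallein replicate 2 lay within the controls on that scale.

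RPL35A, a large subunit protein whose gene is mutated in some people with Diamond-Blackfan anaemia, had the largest fold change among members. Its levels were 75.2, 25.8 and 22.9 CPM in control libraries against 525, 476 and 24.6 CPM with gallein. Gallein replicates 1 and 2 were far above the controls, and gallein replicate 3 lay among them. The log2 fold change was 3.05 ± 1.17 (SE; adjusted p = 0.756 by edgeR) and 2.73 without gallein replicate 2. Its share of the ribosomal protein counts was 0.216%, 0.182% and 0.149% in the controls and 1.24%, 0.427% and 0.189% in gallein, with gallein replicate 3 again within the range of the controls.

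RPL22L1 is a paralogue of RPL22, and in mouse RPL22 represses its expression. RPL22L1 was at 40.2, 25.2 and 17.9 CPM in control libraries against 110, 179 and 29.0 CPM with gallein, which gave a log2 fold change of 1.93 ± 0.85 (SE; adjusted p = 0.761 by edgeR). RPL22 was at 126, 37.5 and 59.5 CPM in control libraries against 252, 224 and 43.4 CPM with gallein. Counts of RPL22L1 per count of RPL22 were 0.318, 0.673 and 0.301 in the controls and 0.435, 0.800 and 0.669 in gallein. Control replicate 2 lay above gallein replicate 1 and beside gallein replicate 3, so the ratios overlapped.

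The gene rps20, a component of the small subunit head, differed mainly by gallein replicate 2. It stood at 246, 102 and 55.8 CPM in control libraries against 288, 2567 and 69.6 CPM with gallein. The log2 fold change of 2.86 ± 1.34 (SE; adjusted p = 0.776 by edgeR) was 0.41 without gallein replicate 2. RPL10A, a large subunit protein of the L1 stalk at the exit side, showed the same kind of pattern, with 1007, 410 and 358 CPM in control libraries against 696, 6838 and 295 CPM with gallein. Its log2 fold change of 2.14 became -0.26 without that library.

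**Figure D4:**
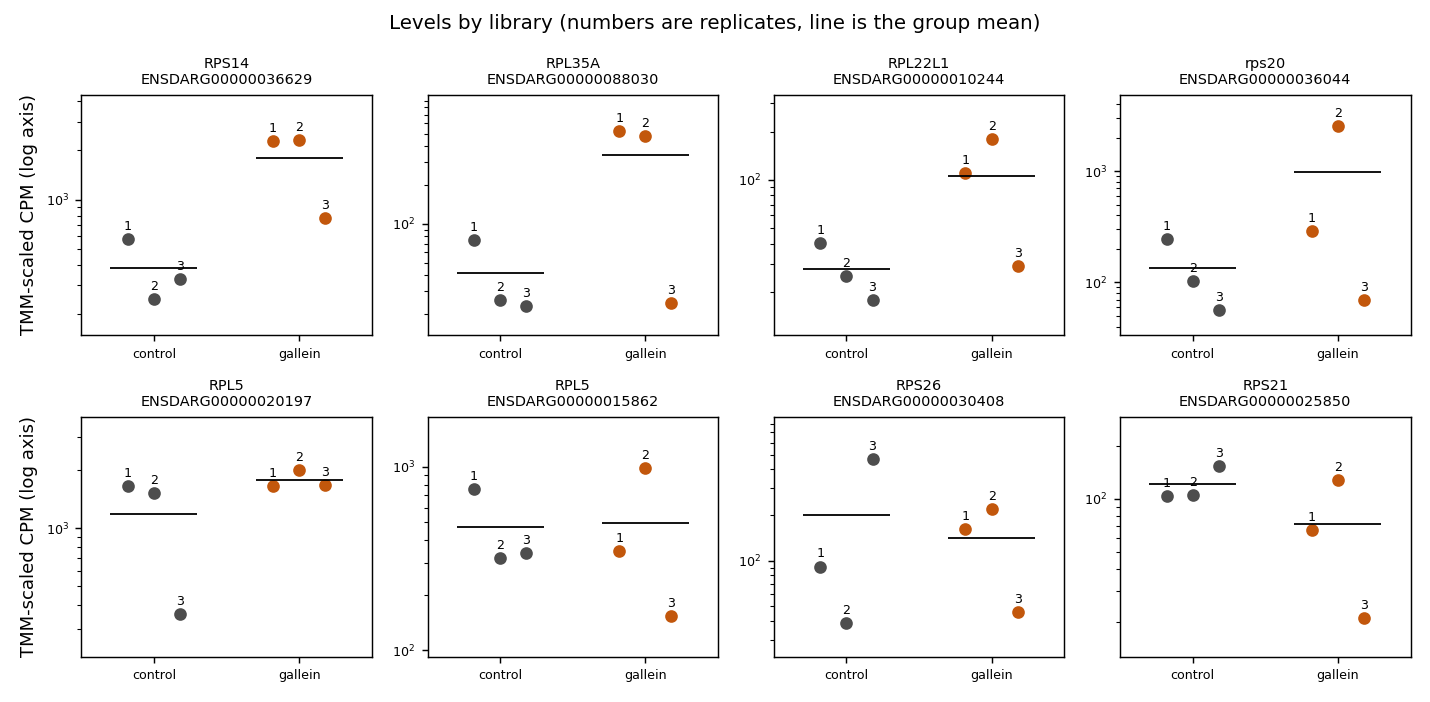
TMM-scaled CPM on a log axis for 8 ribosomal protein genes, 1 point per library labelled with its replicate number, the horizontal line being the group mean. For RPS14 and RPL5 ENSDARG00000020197 all gallein points lie above all control points, for RPL35A gallein replicate 3 lies at the level of the controls, and for rps20 gallein replicate 2 stands alone at 2567 CPM.

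At the stalk, which recruits elongation factors, the levels of all 3 genes overlapped between groups. RPLP0, the base of the stalk, was at 292, 162 and 133 CPM in control libraries against 580, 830 and 143 CPM with gallein. RPLP1 was at 150, 45.9 and 172 CPM against 302, 310 and 71.6 CPM, and rplp2l at 512, 118 and 255 CPM against 437, 1452 and 244 CPM. Their log2 fold changes were 1.40, 0.89 and 1.27, with adjusted p between 0.809 and 0.888 (edgeR), and 0.89, 0.60 and 0.21 without gallein replicate 2.

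Genes of the large subunit core had the common highest and lowest libraries. RPL3, which lies at the peptidyl transferase centre, was at 3568, 949 and 1422 CPM in control libraries against 2509, 7054 and 647 CPM with gallein. RPL8, another protein of the core, was at 474, 234 and 233 CPM against 618, 2430 and 131 CPM. RPL10, which joins the large subunit late in its maturation, was at 244, 146 and 122 CPM against 194, 879 and 52.98 CPM. In each the highest and the lowest library were gallein replicates 2 and 3, and the fold changes on the log2 scale were 0.78, 1.76 and 1.14. Without gallein replicate 2 they were -0.33, 0.26 and -0.47. RPL13A, known in mammals also as part of an inhibitor of translation after interferon, had 0.91 (0.31 without gallein replicate 2), and RPL7, of the large subunit, had 1.20 (-0.33 without it) with levels of 358, 407 and 81.2 CPM against 402, 1495 and 46.1 CPM.

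RPL11 and RPL5, which travel with 5S ribosomal RNA and can bind MDM2, did not share a pattern. RPL11 was at 95.7, 44.2 and 24.5 CPM in control libraries against 329, 430 and 18.5 CPM with gallein, and the log2 fold change was 2.24 ± 1.13 (SE; adjusted p = 0.779 by edgeR). RPL5 ENSDARG00000020197 was at 1654, 1532 and 358 CPM in control libraries against 1658, 2007 and 1682 CPM with gallein. These groups did not overlap, but control replicates 1 and 2 lay close below the gallein libraries, and the log2 fold change was 0.59 ± 0.95 (SE; adjusted p = 0.943 by edgeR). It was 0.16 without control replicate 3. The other gene of that symbol, ENSDARG00000015862, was at 755, 316 and 339 CPM in control libraries against 346, 990 and 153 CPM with gallein, with a log2 fold change of 0.08.

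Counts of the first RPL5 gene per count of the other were 2.19, 4.84 and 1.05 in the controls and 4.79, 2.03 and 10.99 in gallein. The ratio was highest in gallein replicate 3, where most members were lowest, and the groups overlapped. The first RPL5 gene took 12.9% of the ribosomal protein counts in gallein replicate 3 and 1.80% in gallein replicate 2. The share of ENSDARG00000015862 was 2.17%, 2.23% and 2.20% in the controls and 0.815%, 0.888% and 1.18% in gallein. Every gallein library thus lay below every control on that scale, although the levels in CPM overlapped. How many members had groups apart in their shares was not counted. Copies that share a symbol may share reads, and the sources used here do not say how such reads were counted, which leaves the split between them uncertain.

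Among the other large subunit genes with a small p was RPL35, at the exit of the peptide tunnel, at 174, 68.0 and 93.2 CPM against 492, 764 and 97.0 CPM. Its log2 fold change was 2.01 with an adjusted p of 0.779 (edgeR), and gallein replicate 3 lay within the controls. RPL7L1, a factor of large subunit assembly related to RPL7, was low throughout, between 1.57 and 7.38 CPM, and gallein replicate 1 was its highest library.

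In the small subunit, RPS7, whose protein also binds MDM2, was at 1839, 827 and 561 CPM in control libraries against 5769, 4625 and 301 CPM with gallein. Gallein replicates 1 and 2 were above and gallein replicate 3 below every control, and the log2 fold change was 1.73 ± 1.18 (SE; adjusted p = 0.815 by edgeR). RPS12 showed the same split, with 42.5, 13.2 and 32.8 CPM in control libraries against 150, 164 and 9.93 CPM with gallein. RPS16 was at 235, 71.9 and 98.1 CPM against 331, 1025 and 105 CPM. The log2 fold changes of RPS12 and RPS16 were 1.87 and 1.85, and 1.44 and 0.69 without gallein replicate 2.

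RPS6, the substrate of the S6 kinases, was at 577, 121 and 282 CPM in control libraries against 394, 1210 and 212 CPM with gallein, a log2 fold change of 0.89 that became -0.11 without gallein replicate 2. RPS19, mutated in part of the cases of Diamond-Blackfan anaemia in people, was at 80.3, 41.7 and 31.1 CPM against 97.7, 151 and 35.4 CPM, also with 0.89 and with 0.38 without that library. RPS4Y2 is the symbol given to the zebrafish RPS4 gene, of the small subunit body, and had 1.01, or 0.14 without it. The symbol rps19bp1 held between 0.434 and 4.91 CPM.

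RPS27A is made as a fusion of ubiquitin with a small subunit protein. The levels of rps27a were 535, 207 and 205 CPM in control libraries against 436, 2126 and 138 CPM with gallein. The log2 fold change was 1.51 (-0.14 without gallein replicate 2), and gallein replicates 2 and 3 were the highest and the lowest library. The gene rps27.1 and its like copy rps27.2 had 1.27 and 1.41 (0.11 and 0.41 without gallein replicate 2), and rps27.2 had between 0.0573 and 0.150 counts per count of rps27.1. RACK1, a scaffold protein on the small subunit head that falls outside the name rule, was at 1928, 410 and 281 CPM against 1162, 3369 and 369 CPM, a log2 fold change of 0.90 (-0.19 without gallein replicate 2). The gene faub, of the FAU family of ubiquitin-like fusions, did not exceed 3.196 CPM.

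Some members departed from the common pattern, and these were picked after their values had been seen. RPS21 had the most negative log2 fold change, -0.76, with 104, 105 and 154 CPM in control libraries against 66.5, 127 and 21.1 CPM with gallein. Its share of ribosomal protein counts was 0.298%, 0.743% and 1.00% in the controls and 0.157%, 0.114% and 0.162% in gallein, below every control in all 3 gallein libraries. RPS26 ENSDARG00000030408 was at 91.6, 38.8 and 469 CPM against 162, 218 and 46.2 CPM, and its log2 fold change of -0.49 became 1.12 without control replicate 3. The other RPS26 gene, ENSDARG00000037071, was at 105, 50.03 and 66.7 CPM against 179, 278 and 71.8 CPM. Counts of the first per count of the other were 7.03 in control replicate 3 and between 0.644 and 0.907 in the other 5 libraries.

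Other parts of the translation machinery were followed with lists of known members. Among 11 tested elongation factor genes 8 had a positive log2 fold change and 0 passed the test, with a median of 0.35. The gene eef1a1l1, which encodes an elongation factor that delivers aminoacyl-tRNA and carries a TOP start in mammals, was at 82977, 23432 and 21899 CPM in control libraries against 53523, 200251 and 23484 CPM with gallein. Its highest library was again gallein replicate 2, which was the highest for 4 of the 11 elongation factor genes (36.4%), beside 22.3% of all genes tested. Of 9 other tested genes known in mammals for TOP transcripts, 8 were positive and 0 passed, with a median of 0.62. Gallein replicate 2 was the highest library for 2 of these 9 (22.2%), near the share over all genes. TPT1, the translationally controlled tumour protein, was 1 of the 2, at 2712, 1707 and 1783 CPM against 3344, 10283 and 1434 CPM.

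Initiation factor genes had a median of 0.29, with 29 of 46 positive, and mitochondrial ribosomal protein genes a median of 0.32, with 38 of 62 positive. Neither list had a gene past the test. Gallein replicate 2 was the highest library for 19 of the 46 (41.3%) and 24 of the 62 (38.7%), beside 22.3% of all genes tested. The summed level of mitochondrial ribosomal protein genes was nevertheless highest in gallein replicate 1, at 1273 CPM, of which MRPL2 alone held 782 CPM. The 79 tested genes of ribosome biogenesis, which process ribosomal RNA and assemble the subunits in the nucleolus, had a median of -0.17 and 33 positive values, and 0 passed. Their summed level was 1530, 1008 and 1128 CPM in control libraries against 6946, 1319 and 1118 CPM with gallein. Here gallein replicate 1 was the high library, most of it from PES1 at 3090 CPM and ncl at 2444 CPM, and not gallein replicate 2.

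A mixed list held genes of mTOR signalling and TOP control together with kinases taken by their rps6k symbols, not all of which belong to mTOR signalling. Of its 23 tested genes, 11 had a positive log2 fold change and 0 passed, with a median of -0.03. The translation repressor gene eif4ebp1 was at 88.8, 33.5 and 36.6 CPM in control libraries against 239, 2014 and 42.7 CPM with gallein, and gallein replicate 2 stood far above the rest. The list did not share that peak: eif4ebp1 was the only 1 of the 23 (4.35%) highest in gallein replicate 2, beside 22.3% of all genes tested. Peaks in 1 library also occurred in the other gallein libraries. The gene larp4ab was at 559 CPM in gallein replicate 1, and akt1s1 at 855 CPM in gallein replicate 3.

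Markers of some other cell types were highest in the same library as the ribosomal protein genes, and those of others were not. The 10 listed genes of melanin pigment cells summed to between 141 and 311 CPM in control libraries against to 127, 22456 and 139 CPM with gallein. Of the 8 tested, 7 were highest in gallein replicate 2, and TYRP1 ENSDARG00000029204, a melanin synthesis enzyme, was at 20418 CPM there. The 11 genes of cartilage and connective tissue summed to between 4074 and 5043 CPM in control libraries against to 3407, 28205 and 2923 CPM with gallein, with 9 of 11 highest in gallein replicate 2. No gene of these 2 lists was at 0 in every library.

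Erythroid genes summed to 33.4, 14.4 and 6.82 CPM in control libraries against 53.7, 165 and 4.61 CPM with gallein, with hbaa2 at 0 in every library. The 12 tested mature olfactory neuron genes all had negative log2 fold changes, 0 passed the test, and 5 had all gallein libraries below all controls, beside 5.22% of all genes. Skin genes summed to 10476, 5062 and 1802 CPM in control libraries against 7476, 4486 and 1811 CPM with gallein. The sum was highest in control replicate 1, the control with the highest ribosomal protein level, and krt91 alone held 6024 CPM of it. Other skin genes, krt4 and krt5 among them, were highest in gallein replicate 1. Muscle genes had their highest sum, 3760 CPM, in control replicate 1. Lens (4190 CPM), photoreceptor (22583 CPM) and leukocyte genes (42.5 CPM) had their highest sums in gallein replicate 1, and brain genes (1015 CPM) in gallein replicate 3. Of the photoreceptor sum in gallein replicate 1, opn1sw2 alone held 20480 CPM. Liver and yolk genes were lowest in gallein replicate 2, at 12.2 CPM against 216 to 1468 CPM in the other libraries, with vtg1 at 0 in every library. The part of these cell types in the ribosomal protein values was not tested. Without gallein replicate 2 the members' median log2 fold change was 0.31, against 1.26 with it.

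**Figure D5:**
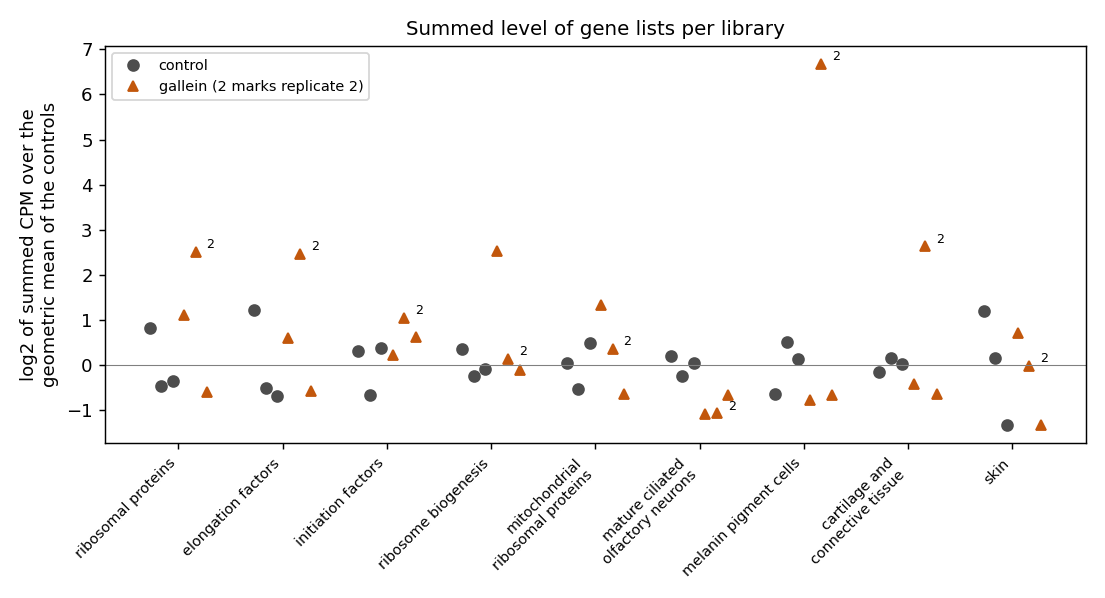
Summed CPM of each gene list in each library, as log2 of its ratio to the geometric mean of the controls (circles, controls; triangles, gallein, with 2 marking gallein replicate 2). Gallein replicate 2 is the highest point for ribosomal proteins, elongation and initiation factors, pigment cell and connective tissue genes. Gallein replicate 1 has the highest sums for ribosome biogenesis, mostly from PES1 and ncl, and for mitochondrial ribosomal proteins, mostly from MRPL2.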

How the data were processed

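For each of 6 samples the authors deposited 2 files of raw counts by gene. TopHat2 2.0.4, HTSeq and the build Zv9 are named, per the submitters' processing notes; how reads were counted, on which strand and with which annotation is not stated there. The 2 files of a sample differed by little more than sampling noise (chi-square per gene 1.37 to 1.76, against 426 to 1621 between replicates) and were summed as 1 replicate. Rows naming no gene held 19.4% to 33.9% of a sample's total and, like the 92 spike-in rows, were left out of library sizes.

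The name table covered 20734 of 32469 identifiers. Of 85 symbols in RefSeq (assembly GRCz12tu) that meet the rule, 14 had no member of that name here; rpl13, rpl14, rpl24, rps3, rps18 and rpsa, among others, are not analysed here.

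The main test was that of edgeR 4.0.16, run in R 4.3.3 (TMM, filterByExpr with a minimum count of 10, robust quasi-likelihood fit on group, Benjamini-Hochberg over 18271 genes, two-sided). The SE is the log2 fold change divided by the square root of F. Levels are TMM-scaled CPM; log2 deviations used a pseudocount of 1. Alternatives were other scalings (DESeq2 1.42.0 size factors, upper quartile, library size, spike-in totals, TMM without the mitochondrial genome), other filters, a replicate block, the DESeq2 Wald test, limma-voom (limma 3.58.1), single files, members without paralogues, and each library left out. Counts were simulated at a low set spread between samples and at the spread estimated from these libraries. The check required recovery of the fold changes only at the low spread. The share of changes that would be called at the spread of these libraries is not given here.

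The members, lists and tests were chosen with earlier results of these data known. Named genes were, per subunit, the 5 with the smallest p, those with groups apart, the 3 with the largest ratio between gallein libraries, and genes fixed by role; RPS21, both RPS26 genes, PES1, ncl and the list genes named were added after their values were seen. A spread per coding length was planned and not computed, since no lengths were used here. Levels of different genes are therefore set against each other only as ratios or shares of counts. These are not corrected for length and serve to compare libraries. Some genes the naming rule picks, and 1 gene list, are not reported here. P-values measure the spread between samples, and counts are not independent molecules.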

Additional observations from a re-analysis of the deposited data

How the results depend on the processing

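Precision was limited by 3 libraries a group and an 8.57-fold range of the summed level within gallein. No member was called in edgeR, DESeq2 or limma-voom under any alternative run.

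Under spike-in totals the median log2 fold change was -0.76 in the large and -0.78 in the small subunit, the summed levels differed by -0.89 and -0.64, 0 members had groups apart with gallein above and 17 below (29.9% of all genes lay below). With gallein above, 1 member was apart under upper-quartile factors (2.82% of all genes), library size only (1.03%; 1 also below, beside 11.3%), no filter (3.01%), and at least 10 counts in every sample (4.15%). Leaving out each library gave large subunit medians from 0.21 to 1.82, small subunit medians from 0.36 to 1.84, summed differences from 0.16 to 1.62 and from 0.38 to 2.04, between 2 and 37 members apart above (6.22% to 10.9% of all genes), and between 0 and 1 below (8.71% to 15.4%). The 37 came without gallein replicate 3 (beside 10.9% of all genes), and 12 without control replicate 1 (8.14%).

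Samples of the same replicate number correlated at 0.067, -0.115 and 0.176 in their deviations, so the numbers were not taken to pair them. With the replicate block the medians were 0.85 and 0.79, no call changed, and RPL5 ENSDARG00000015862 (-0.27), RPL7L1 (-0.15) and RPS26 ENSDARG00000030408 (0.25) changed sign.

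Spike-in totals also turned these log2 fold changes negative: RPL10 -1.16, RPL10A -0.10, RPL13A -1.24, RPL22 -0.70, RPL22L1 -0.23, RPL3 -1.22, RPL35 -0.0342, RPL5 -1.95 (ENSDARG00000015862) and -1.29 (ENSDARG00000020197), RPL7 -1.42, RPL7L1 -1.98, RPL8 -0.49, RPLP0 -0.70, RPLP1 -0.96, rplp2l -0.58, RPS12 -0.18, RPS16 -0.17, RPS19 -1.13, rps19bp1 -1.52, rps27.1 -0.81, rps27.2 -0.75, rps27a -0.66, RPS4Y2 -1.02, RPS6 -0.94, RPS7 -0.44, RPS26 ENSDARG00000037071 -0.69, eef1a1l1 -0.88, RACK1 -1.02 and faub -1.88. Library size only turned RPL5 ENSDARG00000015862 (-0.66), RPL7L1 (-0.57), rps19bp1 (-0.0114) and faub (-0.31). These scalings moved genes in general: the median over all genes tested was -1.67 under spike-in totals and -0.49 with library size only, beside 0.07 with TMM factors. The same RPL5 gene was at -0.0737 with upper-quartile factors, -0.0367 with at least 10 counts in every sample and -0.20 in limma-voom, where RPL7L1 was at -0.17 and faub at -0.66.

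Leaving out single libraries turned the sign of RPL5 ENSDARG00000015862 (-0.91 to 0.62), RPS26 ENSDARG00000030408 (-0.98 to 1.12), RPL7L1 (-0.81 to 0.55), rps19bp1 (-0.29 to 1.35), RPL10 (-0.47 to 1.65), RPL10A (-0.26 to 2.79), RPL3 (-0.33 to 1.54), RPL7 (-0.33 to 1.75), rps27a (-0.14 to 2.15), RPS6 (-0.11 to 1.60), eef1a1l1 (-0.15 to 2.05), RACK1 (-0.19 to 2.27) and faub (-1.16 to 1.80). The cause of these changes was not tested.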
